A study of Mus musculus with 6 samples.

Results

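Immunoglobulin variable segments were read in primary splenic B cells (whole, from adult mice) by 42 of the 12422 probe sets of the array that are not controls. They were taken by annotation, as every probe set with a symbol that starts with Igkv, Ighv or Iglv, bright or dim. Earlier results of these data were known when this set was chosen. The 42 comprise 33 kappa probe sets, 8 heavy probe sets and 1 lambda probe set. Affymetrix MG_U74Av2 arrays measured 3 groups with 2 arrays each, which were wild type CBA mice, Xid mice of the strain CBA/N, whose kinase Btk carries the R28C mutation, and Btk KO mice, which began as Btk KO/SW129 and were back-crossed to CBA for 9 generations. The series describes 3 chips that were followed by another 3 chips with RNA of new mice, and each set, here called run 1 and run 2, holds 1 array of each group. Nothing in the labels says whether an RNA came from 1 animal or several, or how the B cells were isolated, so p-values measure the spread between these arrays. Xid against CBA also compares 2 strains, and the knockout line can carry other differences from its first background; neither can be told apart from the effect of Btk.

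A B cell builds its antibody by joining 1 variable segment, out of a large array of them, to short joining segments (and a diversity segment in the heavy chain) in front of a constant region. The variable part forms the antigen binding site, and in the messenger RNA it lies towards the 5' end, with the constant region towards the 3' end. Each B cell transcribes 1 productive heavy chain and 1 productive light chain, which is kappa in most mouse B cells and lambda in the rest. The level of a segment in a population therefore follows both the number of cells that chose it and the RNA per cell, and in these bulk samples fewer cells and less RNA per cell cannot be told apart. Btk relays the signal of the B cell receptor, and mice without its function have fewer mature B cells and lack most B-1 cells.

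Among the 42 probe sets, 31 carry 1 symbol and stand for 20 segments, all of which a RefSeq gene table lists as variable segments under the same symbol. The other 11 carry several symbols, 8 of them with a constant region among them, and are called here by their probe set ID. The array design marks 20 of the 42 as type f, whose probes are common to a sequence family, so related segments share signal and a single segment's level is uncertain. A further 17 are of the plain type, 2 are type s (shared by several transcripts), 2 are type r (fewer design rules met) and 1 is type g. The filter on low values, a mean intensity of about 19.8, was passed by 40 members, and Igkv6-14 by 97569_at and Igkv1-135 by 101348_at stayed below it. Igkv9-120 by 99396_at lay just above the filter, at 15.8 to 42.8 on the 6 arrays, and Igkv6-14 by 97569_at just below, at 15.4 to 21.7.

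The authors had scaled all arrays to 1 trimmed mean, 100.06, which left array medians of 32.5 to 37.6, and precision is limited by the small number of arrays. One array differed from the others in its RNA. In Btk KO of run 1 the 3' end of Gapdh gave 10.4 times the signal of its 5' end. For beta-actin it gave 3.61 times, where the 5 remaining arrays reached 1.61 (Gapdh) and 1.66 times (beta-actin). The Btk KO array of run 1 has the chip lot of run 1 but was hybridised on a separate day, later than the arrays of run 2. That it shares the run 1 effect of CBA and Xid is therefore an assumption. The Gapdh ratios of run 2 were 0.756 (CBA), 0.868 (Xid) and 0.832 (Btk KO). The B cell markers Cd79a, Cd79b and Ms4a1 measured at least 3013.3 on every array, and the 7 of 9 T cell markers summed to 109.5 to 323 on the 6 arrays, with Cd8a at 3.70 to 22.3. Summed over the 11 of 12 macrophage markers on the array, intensities were 1402.5 to 2062.6 in CBA, 3204.3 to 5179.6 in Xid and 4669.0 to 7115.3 in Btk KO. Neutrophil markers (8 of 8) summed to 193.2 to 241.5, 258.5 to 276.2 and 894.6 to 1655.9, and erythroid markers (6 of 10) to 4071.4 to 5674.1, 5267.7 to 6713.7 and 7357.5 to 14868.4 in the same order. NK cell markers (6 of 8) summed to 251 to 324, 370.3 to 570.4 and 589 to 1211.

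Most kappa segments were lower in both mutant lines than in CBA. The median over the 33 kappa probe sets was 486 and 826 in CBA (intensity, run 1 and run 2), 338 and 432 in Xid and 139.0 and 375 in Btk KO. In each run CBA was the highest and Btk KO the lowest, but Xid of run 2 and CBA of run 1 lay close together. Heavy segments followed the same order, with medians over 8 probe sets of 497 and 1255 in CBA, 274 and 777 in Xid and 157 and 612 in Btk KO. The run was as large a difference as the group: the heavy median of every group was higher in run 2 than that of CBA in run 1. The single lambda probe set, 93638_s_at, which also carries a constant symbol, measured 829 and 803 in CBA, 664 and 472 in Xid, and 326 and 352 in Btk KO. Its 3 groups did not overlap, and unlike most heavy probe sets it did not rise in run 2 of CBA or Xid.

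**Figure D1:**
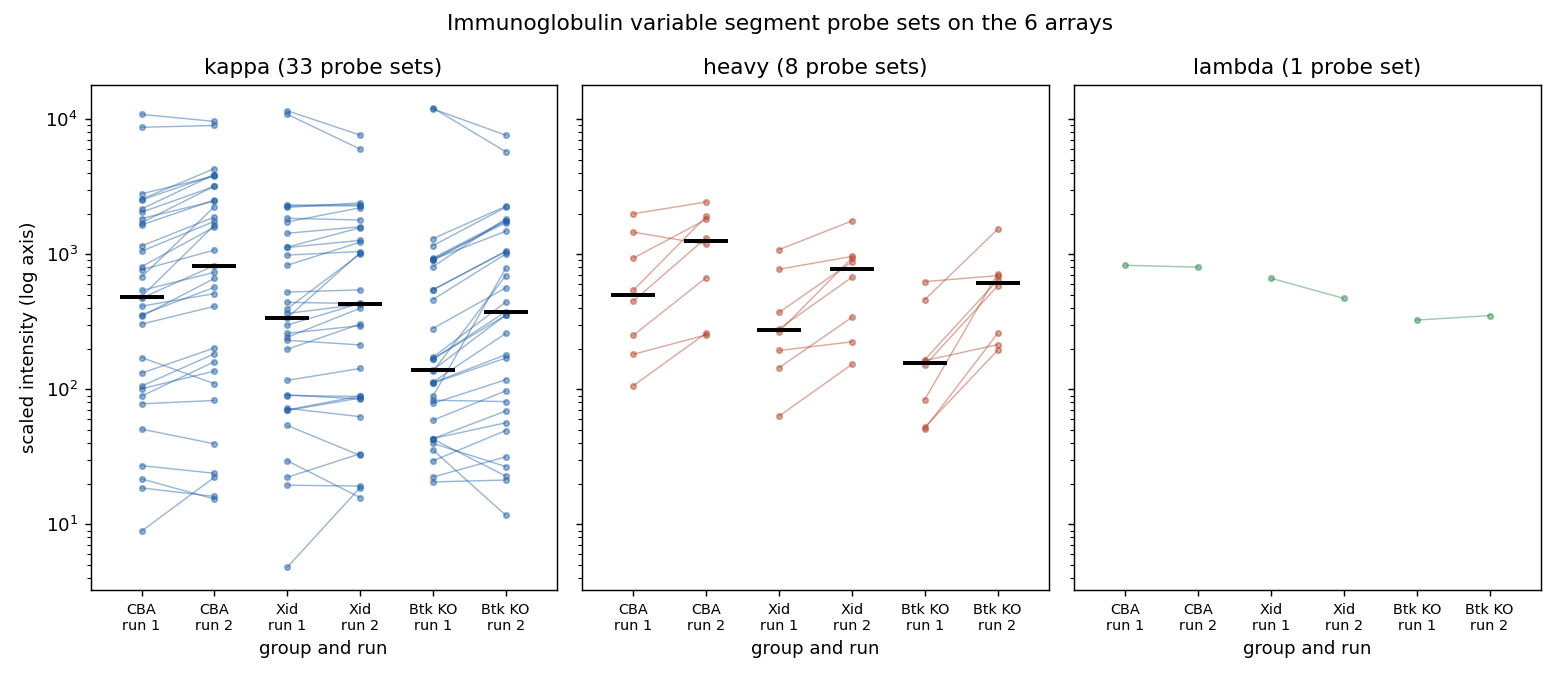
Scaled intensity (log axis) of each of the 42 variable segment probe sets on the 6 arrays, 1 panel per chain; points joined by a line are the 2 runs of a group, and black bars are the median over the probe sets of a chain. The kappa median falls from 486 and 826 in CBA to 139.0 and 375 in Btk KO, while the 2 brightest kappa probe sets reach at least 5755.3 on every array.

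How segment transcripts differ when the kinase is missing is addressed by Btk KO against CBA. Of the 42 probe sets, 34 were lower in both runs and 1 was higher in both, where 22.3% of all probe sets were lower in both runs. The median log2 difference was -1.02 for kappa (-1.15 in run 1 and -0.89 in run 2) and -1.31 for heavy (-1.76 and -0.90), against 0.05 over all 12422 probe sets. Both Btk KO arrays lay below both CBA arrays for 25 members, 21 kappa, 3 heavy and the lambda probe set, where 13% of all probe sets did. With limma on the 3 group means no member passed (0 of 40 tested, adjusted p at least 0.053), 23 were lower at an unadjusted p under 0.05 (3.18% of all tested) and 0 higher, and limma called 0.0134% of all tested probe sets lower. With the run as a block, 21 of the 40 fell and 0 rose, where 0.805% of all tested probe sets fell and 1.42% rose. Those 21 were 15 kappa, 5 heavy and the lambda probe set, and made up 35.0% of the 60 probe sets that fell.

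That block fit includes the Btk KO array with the Gapdh ratio of 10.4. Leaving that array out reduces Btk KO to run 2 and takes a further residual degree of freedom. The p-values and calls of the reduced fit, here and below, rest largely on the spread shared over all probe sets. They are a weak check of the 21 calls. Without that array, where the filter was set anew on 5 arrays and passed 41 members, the block fit called 7 members lower, all of them among the 21, where 0.416% of all tested probe sets were called lower. Within run 2 alone, where the 3' to 5' ratios of the groups were alike, 37 of 42 members were lower in Btk KO (28 kappa, 8 heavy, 1 lambda), and 44.6% of all probe sets were. The heavy median was -0.90 in run 2 against -1.76 in run 1, and the kappa median -0.89 against -1.15. B cell markers were lower in both runs for 7 of the 8 (of 9) on the array, with a median of -0.65 and 0 called in either fit (3 and 6 lower at an unadjusted p under 0.05, without and with the block, where 15.1% of all tested passed with the block in either direction). Macrophage markers had a median of 1.90, with 6 of 9 tested higher with the block (3 without), and neutrophil markers 2.48, with 4 of 7 higher (2 without), where 1.42% of all tested probe sets were called higher with the block and 0.161% without. The part of these markers in the segment levels was not tested.

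Igkv14-111 by 96974_at had the smallest p of the kappa members in the fit without the block. It measured 413 and 512 in CBA, 231 and 213 in Xid, and 111 and 170.5 in Btk KO (run 1 and run 2 here and below), so the 3 groups did not overlap and lay in the order CBA, Xid, Btk KO. Against CBA the Btk KO difference was -1.70 ± 0.25 (log2, SE), at -1.84 in run 1 and -1.55 in run 2, with adjusted p = 0.053 without the block, 0.01 with it and 0.029 in the block fit that leaves out Btk KO of run 1. Igkv8-30 by 96963_s_at measured 767 and 1075 in CBA, 441 and 432 in Xid, and 168 and 353 in Btk KO, again with no overlap between the groups. Its Btk KO mean was 28.3% of CBA, a difference of -1.87 ± 0.35 (adjusted p = 0.12, 0.013 with the block and 0.029 when the block fit omits Btk KO of run 1). Probe set 101616_at, with 2 symbols of the kappa locus, measured 357 and 569 in CBA, 259.8 and 296 in Xid, and 112 and 180.3 in Btk KO. It had the same difference in both runs, -1.62 in run 1 and -1.63 in run 2, and passed with the block (adjusted p = 0.0088, and 0.028 without Btk KO of run 1).

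Igkv2-112 was a weaker signal with a large relative difference. It measured 106 and 183 in CBA, 90 and 88.6 in Xid, and 29.5 and 49.5 in Btk KO, with the 3 groups apart from each other and Btk KO far below the rest (-1.65 in run 1 and -1.77 in run 2; adjusted p = 0.019 with the block, 0.075 in the block fit that leaves out Btk KO of run 1). Igkv8-19 measured 1650.5 and 2523 in CBA, 1123 and 1267 in Xid, and 545 and 1055 in Btk KO, and Igkv15-103 by 101329_f_at 132 and 202 in CBA, 69.7 and 86.2 in Xid, and 43.1 and 69 in Btk KO. Both fell with the block (adjusted p = 0.018 and 0.017) and had adjusted p = 0.096 and 0.058 without Btk KO of run 1. Probe set 96975_at, with 2 kappa symbols, measured 809.6 and 1593 in CBA, 525 and 545 in Xid, and 282 and 564 in Btk KO. Its Xid and Btk KO levels overlapped, and both lay below CBA. The lambda probe set differed by -1.25 ± 0.22, at -1.33 in run 1 and -1.18 in run 2, with adjusted p = 0.11 without the block, 0.019 with it and 0.079 in the block fit that leaves out Btk KO of run 1.

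**Figure D2:**
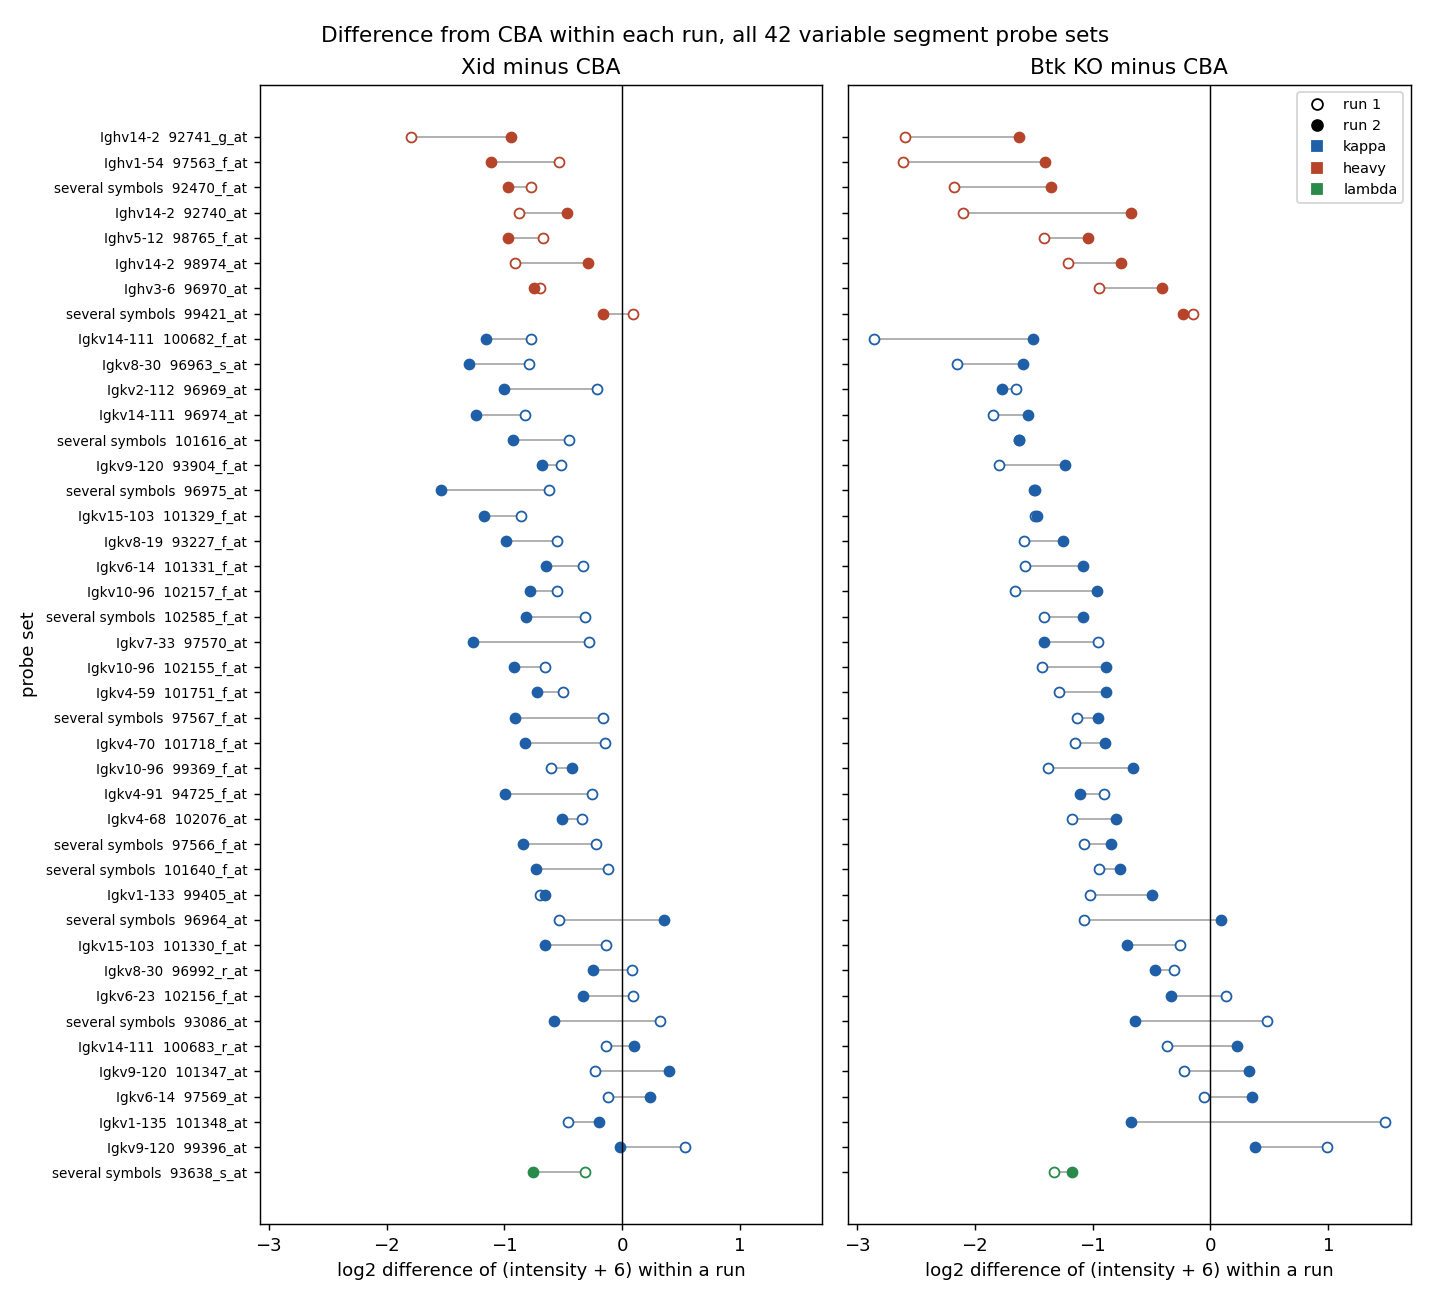
Log2 difference from CBA within run 1 (open) and run 2 (filled) for all 42 probe sets, Xid on the left and Btk KO on the right, with the symbol and probe set ID of each row; colours mark the chain. Most rows lie left of 0 in both runs, 33 of 42 in Xid and 34 of 42 in Btk KO; the rows that change side between runs include the 2 brightest kappa probe sets, 96964_at, several dim kappa probe sets and, in Xid, 99421_at of the heavy chain.

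Heavy segments were read by Ighv14-2, Ighv1-54, Ighv5-12, Ighv3-6 and 2 probe sets with several symbols. Ighv14-2 by 92741_g_at had the largest heavy difference in Btk KO. It measured 939 and 1813 in CBA, 267 and 940.1 in Xid, and 151 and 583 in Btk KO. Btk KO of run 2 overlapped with Xid but not with CBA, and the Btk KO difference was -2.11 ± 0.74, at -2.59 in run 1 and -1.63 in run 2, with adjusted p = 0.44 without the block, 0.0088 with it and 0.029 in the block fit that leaves out Btk KO of run 1. The other probe sets of the segment had smaller differences. Ighv14-2 by 98974_at measured 1459 and 1183 in CBA, 775 and 965 in Xid, and 627 and 696 in Btk KO and differed by -0.99 (adjusted p = 0.045 with the block, and 0.2 when Btk KO of run 1 was left out of it). Ighv14-2 by 92740_at measured 1997 and 2441 in CBA, 1083 and 1766 in Xid, and 462 and 1530.2 in Btk KO and differed by -1.39 (adjusted p = 0.075 with the block).

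The type f probe sets of the heavy chain differed between runs at least as much as between CBA and Xid. Ighv1-54 measured 543 and 1908 in CBA, 372 and 879.7 in Xid, and 83.9 and 718 in Btk KO. Btk KO of run 2 exceeded CBA of run 1, so the groups overlapped although Btk KO was lower in each run (-2.61 in run 1 and -1.40 in run 2). Ighv5-12, at 451 and 1326 in CBA, 281 and 675 in Xid, and 166 and 642 in Btk KO, and 92470_f_at, at 252 and 673 in CBA, 145 and 341 in Xid, and 51 and 259 in Btk KO, had the same form. With the block all 3 fell in Btk KO (adjusted p = 0.039, 0.023 and 0.017), and once that array was left out of the block fit their adjusted p were 0.06, 0.088 and 0.029. Over all members 6 were more than 2-fold higher in run 2 in each of the 3 groups, 4 heavy and 2 kappa, where 0.499% of all probe sets were. They include Ighv3-6, Igkv9-120 by 93904_f_at and Igkv14-111 by 100682_f_at. Igkv9-120 by 93904_f_at measured 486 and 1642 in CBA, 338 and 1025 in Xid, and 136 and 695 in Btk KO and fell in Btk KO with the block (adjusted p = 0.014, and 0.041 without Btk KO of run 1).

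The comparison of Xid with CBA asks the same of a point mutation that leaves the kinase in place. It shares the CBA arrays with the comparison of the knockout. The median was -0.54 for kappa (-0.33 in run 1 and -0.73 in run 2) and -0.77 for heavy (-0.74 and -0.85), against 0.02 over all 12422 probe sets. Lower in both runs were 33 of 42 members and 0 were higher in both, where 23% of all probe sets were lower in both. Both Xid arrays lay below both CBA arrays for 21 members (18 kappa, 2 heavy, 1 lambda), where 13.5% of all probe sets did.

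No member passed in Xid with limma, either without the block (0 of 40, 7 with an unadjusted p under 0.05, all lower, against 1.56% of all tested) or with it (0 of 40, lowest adjusted p 0.092), while 0.0537% and 0.121% of all tested probe sets were called lower. In the block fit that leaves out Btk KO of run 1, an array that takes part in Xid against CBA only through the shared spread and run term, 5 members fell, where 0.389% of all tested probe sets fell. These were Igkv14-111 by 96974_at (-1.03) and by 100682_f_at (-0.97), Igkv8-30 by 96963_s_at (-1.05), Ighv14-2 by 92741_g_at (-1.37) and 92470_f_at (-0.87), in log2 units. Igkv8-30 was at 440.6 and 432 in Xid against 767 and 1075 in CBA, and Igkv15-103 by 101329_f_at, at 69.7 and 86.2 against 132 and 202, differed by -1.02 without passing. The lambda probe set differed by -0.54, at -0.32 in run 1 and -0.76 in run 2. B cell markers had a median of -0.17 in Xid and macrophage markers 1.41, with 5 of 9 higher with the block (0.362% of all tested), and their part was not tested.

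**Figure D3:**
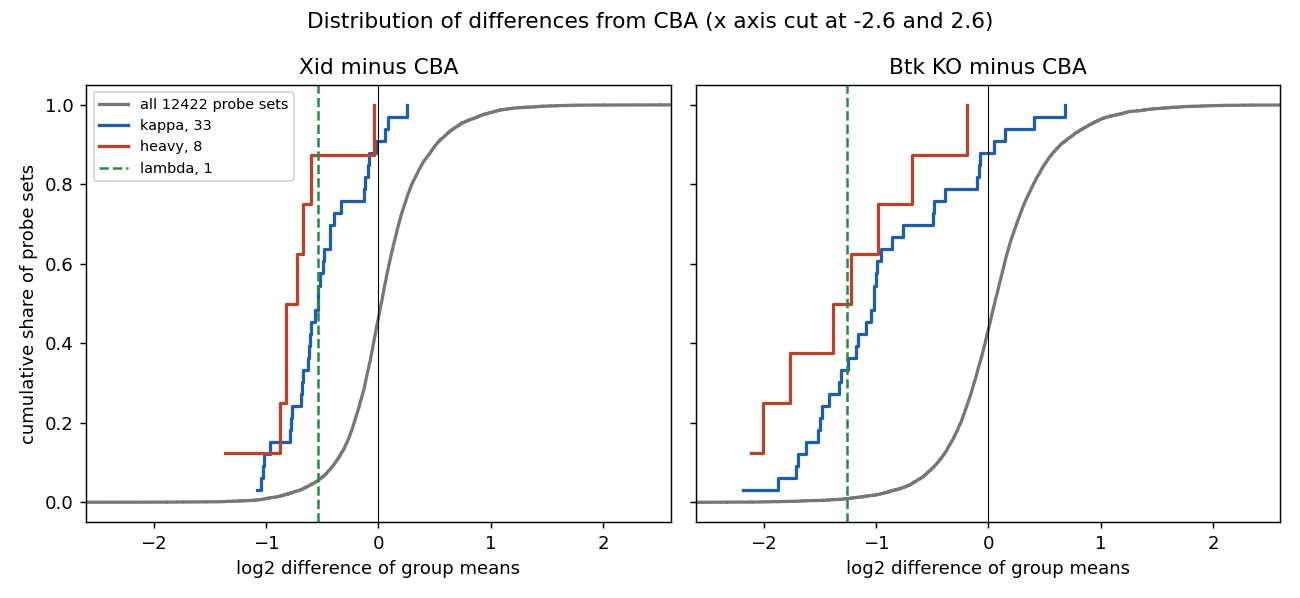
Cumulative share of probe sets against the log2 difference of group means for Xid (left) and Btk KO (right) from CBA, for all 12422 probe sets (grey), the 33 kappa (blue) and the 8 heavy ones (red); the dashed line is the lambda probe set. The kappa medians of -0.54 and -1.02 and the heavy medians of -0.77 and -1.31 lie left of the medians of all probe sets, 0.02 and 0.05.

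Btk KO against Xid compares both mutant lines directly. The median was -0.43 for kappa and -0.56 for heavy, but the size depended on the run, at -0.78 and -0.77 in run 1 and -0.16 and -0.25 in run 2. No member passed with limma without the block or with it (0 of 40 each; 6 with an unadjusted p under 0.05, all lower, against 1.37% of all tested; lowest adjusted p 0.25 with the block), while 0.0134% and 0.0805% of all tested probe sets were called lower. With the Btk KO group reduced to its run 2 array, against both Xid arrays, the kappa median was -0.04 and the heavy median turned to 0.21. These values compare across runs, and the heavy probe sets rose by a median of 1.20 from run 1 to run 2 of Xid. Lower in both runs were 31 members, where 24% of all probe sets were, and both Btk KO arrays lay below both Xid arrays for 14, where 11.6% of all did. Leaving Btk KO of run 1 out of the block fit, limma again called 0 members, and 0.0403% of all tested probe sets lower. Of the 3 members with the smallest p without the block, Igkv2-112 differed by -1.10 ± 0.34 (adjusted p = 0.998), 101616_at by -0.93 and the lambda probe set by -0.72, each lower in both runs; with the block the smallest were those of 101616_at, Igkv9-120 by 93904_f_at and Igkv2-112. The order CBA above Xid above Btk KO in both runs was found for 28 members (21 kappa, 6 heavy, 1 lambda), where 4.42% of all probe sets had it.

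The 2 brightest members and some of the dim ones did not follow the rest. The brightest was Igkv6-23, at 10874 and 9644 in CBA, 11574 and 7639.6 in Xid, and 11935 and 7638 in Btk KO, and next was 93086_at, with 5 symbols that include a constant region, at 8723 and 8998 in CBA, 10901 and 6017 in Xid, and 12140.4 and 5755 in Btk KO. In both, the mutant lines were above CBA in run 1 and below it in run 2, so no direction held, and the Btk KO differences were -0.10 and -0.08. The next brightest, 97567_f_at and 101640_f_at, each with several symbols, had Btk KO differences of -1.04 and -0.86 (adjusted p = 0.086 and 0.11 with the block). Between mean intensities of 100 and 5000, 30 of 31 members were lower in both runs in Btk KO (median -1.25) and 29 of 31 in Xid (median -0.67). Below 100, 4 of 9 were, in either line, where 22.3% (Btk KO) and 23% (Xid) of all probe sets were. Those 4 include Igkv2-112 and Igkv7-33, with Btk KO differences of -1.71 and -1.18. The 1 member higher in both runs in Btk KO was Igkv9-120 by 99396_at, at 16.1 to 18.6 in CBA and 22.8 to 42.8 in Btk KO, close to the filter.

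Where several probe sets share a symbol, they did not always move together. The 3 probe sets of Igkv10-96 gave Btk KO differences of -1.16, -1.31 and -1.02. For Igkv14-111 the probe sets 100682_f_at and 96974_at gave -2.18 and -1.70, and 100683_r_at, which stayed between 59.0 and 97.4 on all arrays, gave -0.08. For Igkv8-30 the type s probe set gave -1.87 and the type r one, at 26.8 to 54.0, -0.39. For Igkv9-120 the family probe set gave -1.51 while 101347_at and 99396_at, at 15.8 to 42.8, gave 0.05 and 0.69. Igkv15-103 gave -1.48 and -0.49. These segments were chosen for having several probe sets, and their values had been seen. The split followed the level in part: the disagreeing probe sets were the dimmer ones of Igkv14-111, Igkv8-30 and Igkv9-120.

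**Figure D4:**
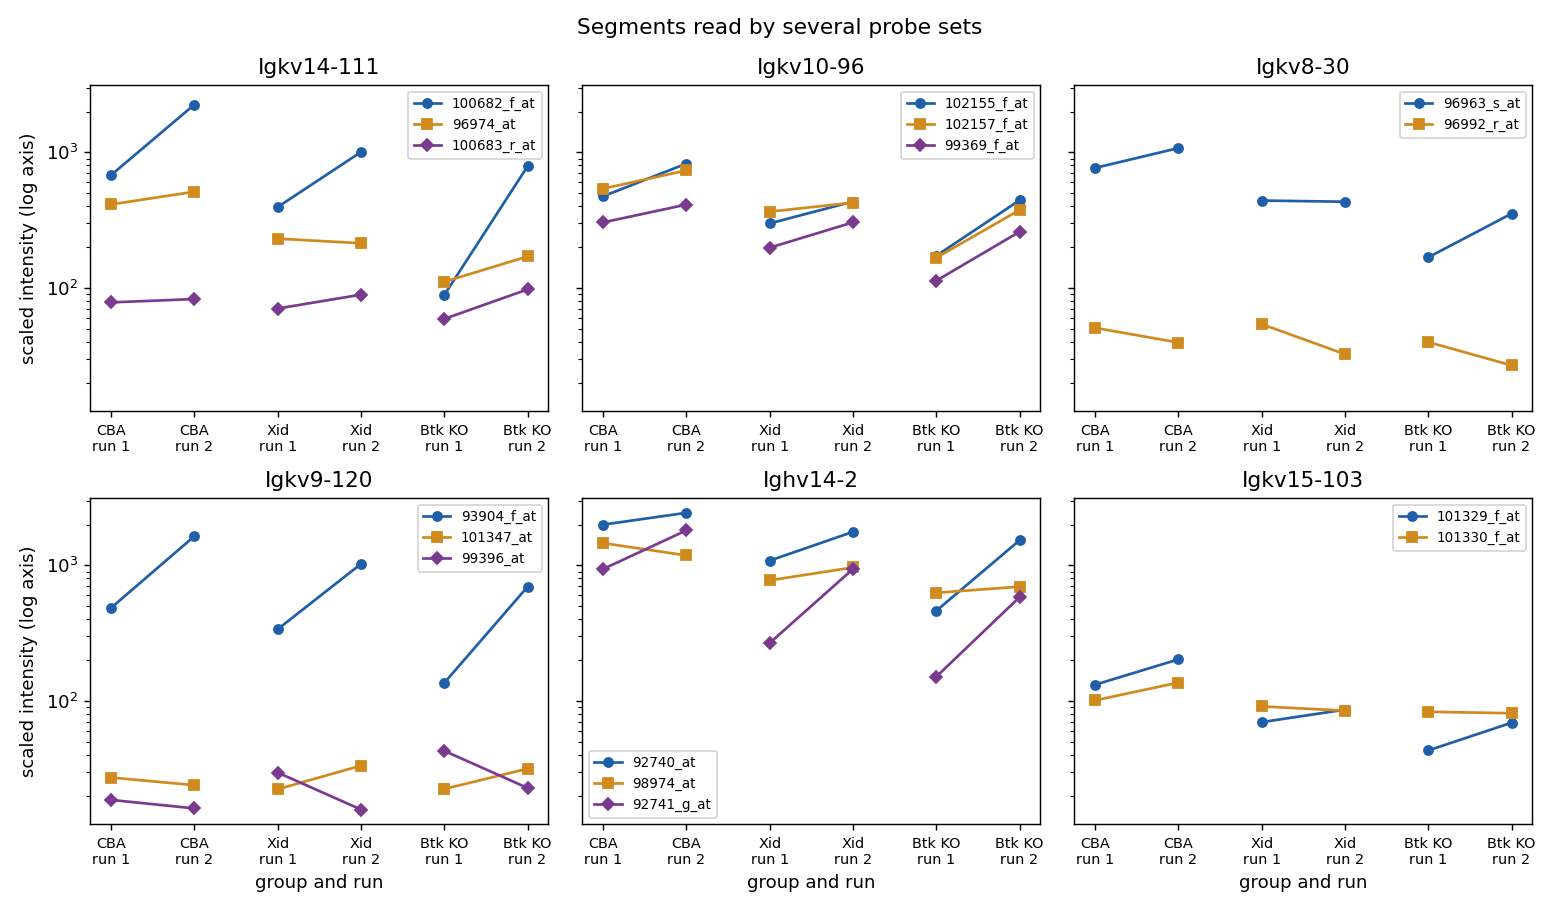
Scaled intensity (log axis) on the 6 arrays for the 6 segments read by 2 or 3 probe sets each that passed the filter, 1 panel per segment and 1 colour and marker per probe set; lines join the 2 runs of a group. The 3 probe sets of Igkv10-96 run in parallel, while for Igkv14-111, Igkv8-30 and Igkv9-120 the dimmer probe sets do not follow the brighter ones.

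By family of related segments, every kappa family read by 3 or more probe sets had medians below 0 in both lines except Igkv9 (0.05 in Btk KO and 0.08 in Xid over 3 probe sets, of which 2 are dim). All 8 probe sets of family Igkv4 were lower in both runs in both lines, at -1.25 to -0.86 in Btk KO (log2, median -1.01) and a median of -0.54 in Xid. Most of these 8 are type f and several share symbols, so they are not 8 separate readings. Family Igkv10 had medians of -1.16 and -0.67 over 3 probe sets, family Igkv8 -1.42 and -0.77 over 3, and family Igkv14 -1.70 and -0.97 over 3. In families Igkv9, Igkv10 and Igkv14 all 3 probe sets carry the same symbol (Igkv9-120, Igkv10-96 and Igkv14-111), so each of these medians describes 1 segment. Family Igkv1 had -0.76 and -0.68 over 3. Family Igkv6 had -0.10 and -0.12 over 3, of which 1 is the brightest member and 1 did not pass the filter. By probe set type, the 17 kappa probe sets of type f had a Btk KO median of -1.09 and the 13 plain ones -0.76. The 5 kappa probe sets with a constant symbol had -0.96 and the 28 without one -1.05.

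B-1 cells, a self-renewing lineage that makes natural antibody, use some segments often. Of 7 segments of well known B-1 antibodies, 2 were among the members. Igkv4-91, which pairs with Ighv12-3 in antibodies to phosphatidylcholine, was read by the type f probe set 94725_f_at, so related segments can share its signal. It measured 1713 and 3200.4 in CBA, 1431 and 1599 in Xid, and 915 and 1481 in Btk KO. Igkv7-33, of the T15 antibodies to phosphorylcholine, measured 89.1 and 160.0 in CBA, 72.3 and 62.8 in Xid, and 43.2 and 56.5 in Btk KO. Both were lower in each run in both lines, with Xid differences of -0.63 and -0.78 and Btk KO differences of -1.004 and -1.18. Neither passed (adjusted p = 0.06 and 0.087 in Btk KO with the block), and both lay within the range of the other kappa members. Of 8 genes of B-1 cells, 5 were tested, with medians of -0.94 in Xid and -0.47 in Btk KO and 0 called in either fit. At an unadjusted p under 0.05 with the block, 3 were lower in Xid, and 2 were lower and 2 higher in Btk KO, where 8.1% and 15.1% of all tested probe sets passed in either direction.

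Constant region genes are given briefly for comparison. The brightest probe set of Ighm, the IgM heavy chain, which all naive B cells make, was 93583_s_at, at 10729.8 and 10623 in CBA, 12318 and 7562 in Xid, and 10580.2 and 7236 in Btk KO. Its Btk KO difference was -0.29 (-0.02 in run 1 and -0.55 in run 2), against the heavy segments' median of -1.31 (-1.76 and -0.90). With the Btk KO group reduced to its run 2 array, against both CBA arrays, it was -0.56 and the heavy median -0.51. These values compare across runs. From run 1 to run 2 of CBA the heavy probe sets rose by a median of 1.095 (log2), and 93583_s_at did not rise. Within run 2 the differences were -0.55 and -0.90, as given above. Fainter probe sets annotated to Ighm alone went both ways: the type f probe set 100362_f_at differed by -1.93 (adjusted p = 0.023 with the block), while 99420_at was higher in both runs, at 1.24 (adjusted p = 0.15 with the block, 0.011 when Btk KO of run 1 was left out of it). Of 6 constant region and J chain genes, each by its brightest probe set, 5 were lower in both runs in Btk KO (median -0.35). Ighg3 by the type f probe set 97574_f_at fell (-2.45, adjusted p = 0.024) and Igha by 100583_at rose (1.99, adjusted p = 0.0063) in Btk KO with the block, and 0 were called without it (limma; 2 lower and 1 higher at an unadjusted p under 0.05). Other probe sets of both genes went different ways. Those of Ighg3 that are not type f, 102721_at, 102722_g_at and 102723_at, differed by -0.16, -0.31 and 0.20. Its other type f probe sets, 101752_f_at, 93927_f_at and 97008_f_at, differed by -2.63, -1.86 and -2.09. Igha differed by 0.90 by 161486_f_at and by -1.89 by 97009_f_at, the latter at -2.86 in run 1 and -0.92 in run 2. Ighd, the IgD heavy chain, differed by -0.42, and Jchain, which joins IgM and IgA into polymers, by -1.17.

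Genes that serve immunoglobulin expression were described by lists, with each gene read by its brightest probe set. For V(D)J recombination 8 of 14 genes were on the array and 7 were tested. Their medians were -0.21 in Xid and -0.12 in Btk KO, with 0 called in either fit. By limma, a dimmer Dntt probe set, 103961_s_at, was called higher in Btk KO with the block (1.805, adjusted p = 0.037, and 0.27 without the block). It measured 5.3 and 17.3 in CBA, 25.3 and 54.1 in Xid, and 42.8 and 59.9 in Btk KO. Rag1, of the recombinase, by the type r probe set 161740_r_at measured 64.4 and 38.7 in CBA, 22.0 and 10.7 in Xid, and 45.4 and 38.9 in Btk KO. The plain Rag1 probe set, 93683_at, did not pass the filter and did not follow it. That probe set measured 11.1 and 6.1 in CBA, 9.7 and 7.8 in Xid, and 15.4 and 32.2 in Btk KO. For the surrogate light chain, which pairs with the heavy chain before a light chain is made, 3 genes were tested. Their medians were 0.43 in Xid and 0.95 in Btk KO, with 0 called. In Btk KO the median was 0.30 in run 1 and 0.92 in run 2, with 2 genes higher in both runs. The third, Igll1 by 99428_at, changed side, at -0.65 in run 1 and 2.54 in run 2. For transcription factors of immunoglobulin genes, 13 of 15 were tested, with medians of 0.12 in Xid and -0.20 in Btk KO and 0 called. Among them Pou2af1, the octamer coactivator, differed by 0.09 and -0.02, and Pax5, a factor of B cell identity, by -0.08 and -0.66. For plasma cell and secretory genes, 12 of 18 were tested, with medians of -0.15 and -0.11 and 0 called. The plasma cell genes Sdc1 and Prdm1 did not pass the filter, at 5.0 to 28.1 and 13.0 to 24.9 on the 6 arrays. In these 4 lists, at an unadjusted p under 0.05 with the block, Btk KO had 1 gene of V(D)J recombination higher, 2 of the surrogate light chain higher, 2 transcription factors lower and 1 higher, and 2 secretory genes lower, where 15.1% of all tested probe sets passed in either direction. Median differences over all tested probe sets were 0.01 in both comparisons.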

How the data were processed

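Total RNA of splenic B cells was hybridised to 6 Affymetrix MG_U74Av2 arrays, 2 for each of 3 groups. The deposited values are 1 linear intensity per probe set and array, which the authors scaled so that the trimmed mean is 100.06 on each array; the summarising software is not given in the sources used here. Probe sets were named from the platform annotation in GEO, and all 20 single variable segment symbols were found in a RefSeq gene table of GRCm38.p6.

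After removal of 66 controls, log2(intensity + 6) was used, so that fold changes of dim probe sets are understated; 6 is near the 20th percentile of all values, 5.9. The 7453 of 12422 probe sets with a mean log2 value at or above the 40th percentile (an intensity of 19.8) were fitted with limma 3.58.1 in R 4.3.3, with group means over all 6 arrays (3 residual degrees of freedom), an intensity trend and Benjamini-Hochberg adjustment over all of them at 0.05. Medians and counts over members have no test. A second fit added the run as a block (2 residual degrees of freedom). The series' description and the shared chip lots of a set mark the run, and deviations from the group means correlated between same-numbered arrays at 0.310 (CBA with Xid), 0.374 (CBA with Btk KO) and 0.441 (Xid with Btk KO), so blocked values are given. The hybridisation day does not mark the run for Btk KO of run 1, which was hybridised after run 2. Of the deposited scanner headers, other fields than chip lot and hybridisation day were not used. The fit of group means was tested on simulated data that had no run effect and changes larger than most member differences. The block fit was not simulated. Values on every array are given for the 2 brightest kappa members, the brightest heavy members and the lambda member. They are also given for the members with the smallest p in each comparison. Of those called with the block, the ones with the smallest p have them. Members, lists and tests were chosen with earlier results of these data known.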

Additional observations from a re-analysis of the deposited data

How the results depend on the processing

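With 2 arrays per group, a called member depended on the fit. In Btk KO against CBA, where 0 members were called by group means alone, 21 were called with the run as a block (the pairing of same-numbered arrays), 1 with a pseudocount of 32, 1 with the stricter filter, 7 in the block fit that leaves out Btk KO of run 1, and 0 to 10 with 1 array left out (10 without Btk KO of run 2). In Xid against CBA 5 were called in that block fit, a setting chosen after the data were seen. In all other settings of the 3 counts the number was 0.

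Medians kept their sign under every setting except heavy in Btk KO against Xid. With 1 array left out they ranged, for Xid against CBA, from -0.89 to -0.19 (kappa) and -1.46 to -0.14 (heavy), for Btk KO against CBA from -1.51 to -0.57 (kappa) and -2.21 to -0.51 (heavy), and for Btk KO against Xid from -0.91 to -0.036 (kappa) and -1.47 to 0.21 (heavy, positive without Btk KO of run 1). In these ranges a group left with 1 array is compared across runs, so the difference between runs enters them. Centring each array on its median moved the heavy median in Xid to -0.85.

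Among the members with values on every array, no called difference changed sign. With 1 array left out, signs changed for Ighv14-2 by 92740_at in Btk KO against Xid (-1.57 to 0.15), Ighv14-2 by 92741_g_at in Btk KO against Xid (-1.70 to 0.21), Ighv1-54 by 97563_f_at in Xid against CBA (-1.73 to 0.075), Ighv1-54 by 97563_f_at in Btk KO against Xid (-2.69 to 0.32), Ighv5-12 by 98765_f_at in Btk KO against Xid (-1.36 to 0.55). They also changed for 92470_f_at in Btk KO against Xid (-2.004 to 0.21), Igkv6-23 by 102156_f_at in Xid against CBA (-0.42 to 0.18), Igkv6-23 by 102156_f_at in Btk KO against CBA (-0.42 to 0.22), Igkv6-23 by 102156_f_at in Btk KO against Xid (-0.30 to 0.34), 93086_at in Xid against CBA (-0.56 to 0.30). They also changed for 93086_at in Btk KO against CBA (-0.62 to 0.45), 93086_at in Btk KO against Xid (-0.49 to 0.58), Igkv9-120 by 93904_f_at in Xid against CBA (-1.47 to 0.28), Igkv9-120 by 93904_f_at in Btk KO against Xid (-2.07 to 0.24), 96975_at in Btk KO against Xid (-0.91 to 0.077). In Btk KO against Xid, Igkv6-23 also turned to -0.10 with quantile normalization, -0.013 with median centring and -0.11 in the block fit that leaves out Btk KO of run 1, and 93086_at to -0.070 with quantile normalization and -0.29 with that block fit. Array number limits all of these; in these reversals the cause was not tested.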
